A study of Trametes versicolor with 3 samples.

Results

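The genes described here are annotated as alcohol oxidases and copper radical oxidases, secreted or peroxisomal enzymes known for passing electrons from alcohols or aldehydes to oxygen and so releasing hydrogen peroxide. In the white-rot fungus Trametes versicolor, 36 of 11480 gene models with reads in at least 1 library carried such a name in their best protein match or among their KEGG names. The names searched were aryl-alcohol oxidase, glyoxal oxidase, copper radical oxidase, glucose oxidase, methanol oxidase, alcohol oxidase, GMC oxidoreductase, glucose-methanol-choline, galactose oxidase and choline dehydrogenase. Pyranose 2-oxidase (Trave1_174991) and cellobiose dehydrogenase (Trave1_73866) were kept out of the set. Apart from these 2 exclusions, names were the only criterion, and the rule used no level. The rule was set with earlier results of these data known.

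RNA was sequenced from mycelium of strain CICC 14001 grown for 9 days, until the mat reached 4 cm, on PDA, the rich potato dextrose agar, on a medium with glucose as carbon source, or on a medium made with poplar. The labels' growth protocol names PDA for all 3 cultures, which contradicts their source names, and the source names were followed. There was 1 library per medium, so no difference has a replicate check, no test between media was possible, and the values describe these libraries. The libraries held 2.68 M to 2.85 M uniquely assigned reads. Levels are given as RPKM, which divides reads by gene model length and library total, and 1 read on a gene model of 1 kb was worth 0.351 to 0.373 RPKM. Of the 35 gene models with a hydrophobin name, small surface proteins of mycelium, 32 or 33 had reads in each library.

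White-rot fungi break down lignin with secreted heme peroxidases, which need hydrogen peroxide as their oxidant. Glyoxal oxidase of Phanerochaete chrysosporium, a copper radical oxidase, oxidises small aldehydes at a copper ion paired with a tyrosine radical. The enzymes outside the copper radical oxidases use FAD and belong to the glucose-methanol-choline (GMC) superfamily. Among them, aryl-alcohol oxidase, studied in Pleurotus eryngii, oxidises benzylic alcohols, and alcohol oxidase oxidises methanol, which is released when methoxyl groups are removed from lignin. Choline dehydrogenase, the name KEGG gave to 22 members, is also a GMC enzyme, and not every enzyme of that superfamily hands its electrons to oxygen.

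By name, 14 members were copper radical oxidases and 22 belonged to the GMC superfamily. The GMC members comprised 10 described as alcohol oxidase or alcohol oxidase-like, 1 described as aryl-alcohol oxidase-like, and 11 others, of which 9 were described as GMC oxidoreductase. No member had a glucose oxidase or a methanol oxidase name. The copper radical members comprised 4 glyoxal oxidase precursors, 1 copper radical oxidase, 2 proteins with a DUF1929 domain, which is found at the C-terminal end of galactose oxidase-like proteins, 2 hypothetical proteins, and 5 described as galactose oxidase. None of the 5 galactose oxidase descriptions was matched by a galactose oxidase name in KEGG, and for 4 of them the KEGG name was protein phosphatase. Their gene models ran from 873 to 2049 bases, against 1662 to 2817 bases for the 9 other copper radical members. The fold of galactose oxidase is shared with kelch-repeat proteins that are not enzymes, so membership by this description is uncertain. The 9 members with a galactose oxidase name in KEGG each also had the KEGG name glutathione S-transferase, so this assignment is not clear-cut either. Of the 36 members, 6 entered through KEGG names alone, and 32 had no Gene Ontology function in the files.

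Each of the 36 members had reads in each of the 3 libraries, but most were weakly transcribed. The median level of the 36 members was 12.3 RPKM on PDA, 13.5 on glucose and 13.7 on poplar. The medians over gene models with reads in that library and at least 1 RPKM in any library were 17.5, 17.6 and 18.5 RPKM. That minimum was not applied to the members here, so the 2 sets of medians are not fully alike. Levels spanned 0.190 to 1134 RPKM on PDA, 0.606 to 2002 on glucose and 0.966 to 4233 on poplar. At least 100 RPKM was reached by 5 members on PDA, 8 on glucose and 5 on poplar. Fewer than 10 reads were counted for 7 members on PDA, 4 on glucose and 6 on poplar. Reads were counted only where they were assigned uniquely, so levels of close paralogs in this family are uncertain.

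**Figure D1:**
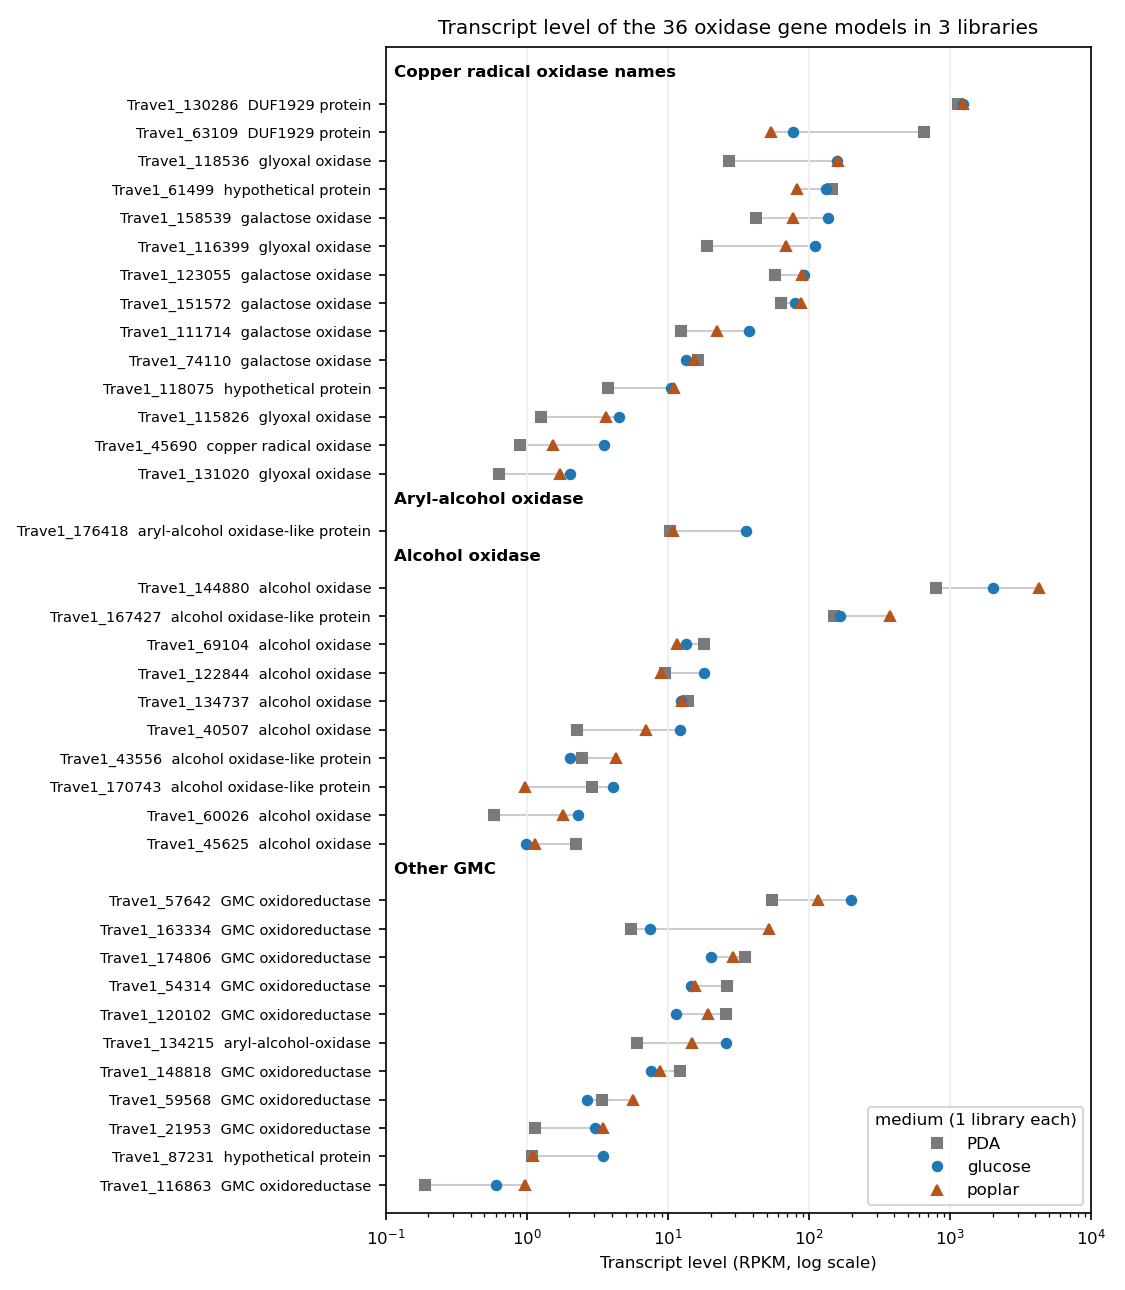
Transcript level (RPKM, log axis) of each of the 36 oxidase gene models, grouped by annotated name, with a square for the PDA library, a circle for the glucose library and a triangle for the poplar library. The alcohol oxidase Trave1_144880 reached 4233 RPKM on poplar, the DUF1929 protein Trave1_63109 was highest on PDA at 647 RPKM, and the 4 glyoxal oxidases had their lowest values on PDA, within counting error for Trave1_131020.

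The summed level of the 36 members was 3348 RPKM on PDA, 4647 on glucose and 6835 on poplar. Their reads made up 0.692% (exact 95% binomial interval 0.682 to 0.702) of the PDA library, 0.929% (0.918 to 0.941) of the glucose library and 1.36% (1.34 to 1.37) of the poplar library. All intervals in the text reflect counting error alone, because each medium had 1 library. They treat reads as independent, and PCR copies of a molecule cannot be told from separate molecules here, so they may be too narrow. A single gene, the alcohol oxidase Trave1_144880, carried 23.7% of the summed RPKM on PDA, 43.1% on glucose and 61.9% on poplar. Without it the sums were 2554 RPKM on PDA, 2645 on glucose and 2602 on poplar. The sums of the other 35 members thus lay within 1.04-fold of each other. Single genes among them differed several-fold between media, in both directions. Trave1_63109, a DUF1929 protein, measured 647 RPKM on PDA, 76.4 on glucose and 53.5 on poplar. Trave1_130286, the other DUF1929 protein, was the highest of the 35 in each library, at 1134 RPKM on PDA, 1231 on glucose and 1229 on poplar. The 12 copper radical members other than the DUF1929 proteins summed to 390, 779 and 619 RPKM in that order. The 21 other GMC members summed to 383, 559 and 701 RPKM. Both of these sums were lowest on PDA. Each library is a bulk extract, so fewer hyphae of a kind and less RNA per hypha cannot be told apart.

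A gene was called in a comparison when RPKM plus 1 differed at least 2-fold and the gene had 1 RPKM or more in either library. This left 35 members in each comparison, since the GMC oxidoreductase Trave1_116863 stayed below 1 RPKM in every library. Between poplar and glucose, 3 of the 35 were higher on poplar (background 8.1% of 10636 gene models) and 3 were lower (background 8.31%), each 8.57% of the members. At this threshold the shares were close to the background. At a 1.5-fold threshold 6 members were higher (17.1%, background 17.4%) and 12 lower (34.3%, background 15.1%) on poplar than on glucose. The median log2 ratio of the members was −0.07, against 0.08 over all gene models. More members were called in the comparisons against PDA. There, 11 of 35 were higher on poplar (31.4%, background 10.8%) and 1 was lower (2.86%, background 5.11%), with a median log2 ratio of 0.60 against 0.09 over all gene models. Glucose against PDA gave 14 higher (40%, background 12.7%) and 2 lower (5.71%, background 6.52%), with a median of 0.67 against 0.01. When the counting interval of the ratio also had to leave out 1, 3 members were higher (background 5.51%) and 2 lower (6.13%) on poplar than on glucose. By that rule 11 were higher (background 7.82%) and 1 lower (3.51%) on poplar than on PDA, and 13 were higher (background 9.74%) and 2 lower (4.73%) on glucose than on PDA. At 1.5-fold, poplar against PDA gave 18 higher (51.4%, background 21.4%) and 6 lower (17.1%, background 11.5%), and glucose against PDA also gave 18 higher (51.4%, background 22.4%) and 6 lower (17.1%, background 15.1%). The 2 comparisons against PDA share that library, so they are not independent. In all, 21 of the 35 were lowest on PDA, 9 on glucose and 5 on poplar, where 40%, 37.3% and 22.7% of all measured gene models were lowest on PDA, glucose and poplar.

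**Figure D2:**
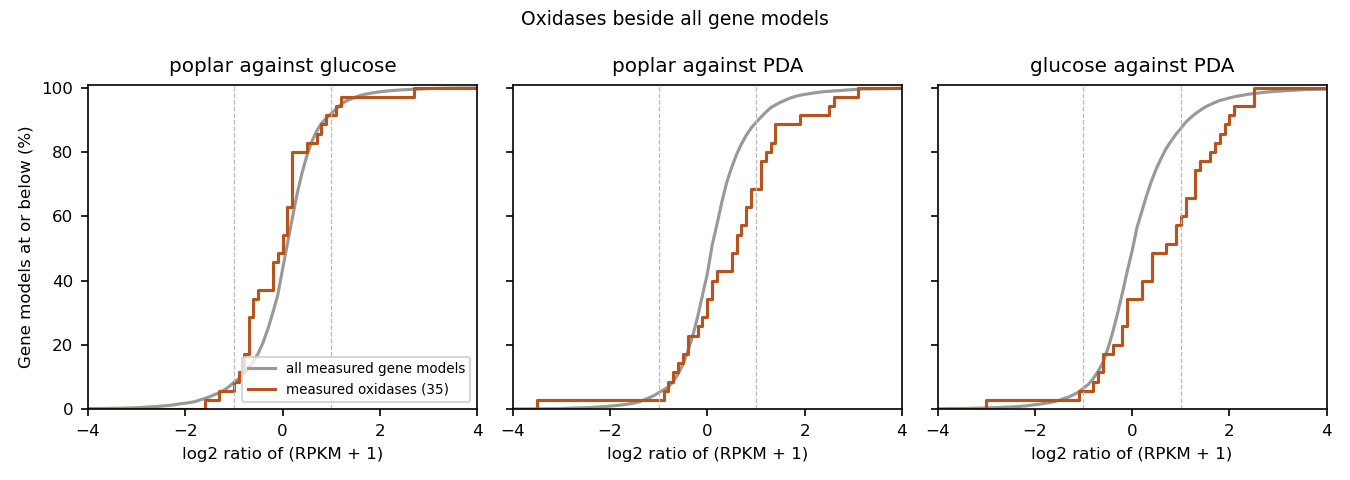
Cumulative percent of gene models by log2 ratio of RPKM plus 1 in each pair of libraries, for the 35 measured oxidases and for all measured gene models, with dashed lines at a 2-fold difference. The oxidases lie to the right of all gene models in both comparisons against PDA over most of the range, with medians of 0.60 and 0.67. Between poplar and glucose they lie to the left at moderate negative ratios, with 34.3% of the oxidases and 15.1% of all gene models at least 1.5-fold lower, and the curves meet near the 2-fold lines.

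The alcohol oxidases held the highest level of the set. Trave1_144880, described as alcohol oxidase and named choline dehydrogenase by KEGG, measured 795 RPKM on PDA, 2002 on glucose and 4233 on poplar. The order was poplar, glucose, PDA, and by RPKM the gene ranked 222 on PDA, 61 on glucose and 21 on poplar among all gene models. It was 5.33-fold higher on poplar than on PDA (95% counting interval 5.16 to 5.50), 2.52-fold higher on glucose than on PDA (2.43 to 2.61) and 2.11-fold higher on poplar than on glucose (2.07 to 2.16). With median-of-ratios scaling the log2 ratio between poplar and glucose was 0.99 in place of 1.08, just under the 2-fold threshold.

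Trave1_167427, an alcohol oxidase-like protein, measured 149 RPKM on PDA, 165 on glucose and 376 on poplar. Here PDA and glucose were close together and poplar stood above both. The gene was 2.28-fold higher on poplar than on glucose (2.10 to 2.48) and 2.52-fold higher than on PDA (2.32 to 2.74). Trave1_40507 measured 2.28 RPKM on PDA, 12.1 on glucose and 6.96 on poplar, on 12, 60 and 36 reads. It was highest on glucose, 5.32-fold above PDA (2.83 to 10.9), and 3.05-fold higher on poplar than on PDA (1.55 to 6.45). The latter call ended with a pseudocount of 5, at a log2 ratio of 0.72. The other 7 alcohol oxidases stayed at or below 18.1 RPKM in each library. Among them, Trave1_170743 had 5 reads on poplar and 20 on glucose, 4.18-fold lower on poplar (1.52 to 14.3), and Trave1_60026 had 11 reads on glucose and 3 on PDA, 3.90-fold higher on glucose (1.03 to 21.8). Both were named after their values were seen. Of the 10 alcohol oxidases, 3 were higher on poplar than on PDA (background 10.8%) and 0 lower (background 5.11%), and the order of the media differed from gene to gene.

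Aryl-alcohol oxidase names were found on 2 members, both highest on glucose, as were 16 of the 35 measured members and 32.1% of all measured gene models. The aryl-alcohol oxidase-like gene Trave1_176418 measured 10.2 RPKM on PDA, 35.8 on glucose and 10.8 on poplar. PDA and poplar were alike within counting error, with a ratio of 1.06 (0.711 to 1.57), and glucose stood above both. The level on poplar was 3.31-fold lower than on glucose (2.43 to 4.56), and glucose was 3.49-fold above PDA (2.56 to 4.85). Trave1_134215, described as the aryl-alcohol-oxidase of Pleurotus eryngii, entered through its KEGG name because of the spelling and was counted with the other GMC members. It measured 6.0 RPKM on PDA, 25.5 on glucose and 14.9 on poplar. It was 4.26-fold higher on glucose than on PDA (2.87 to 6.49) and 2.48-fold higher on poplar than on PDA (1.63 to 3.87), while poplar was 1.72-fold below glucose (1.28 to 2.30). With a pseudocount of 5 the log2 ratio of poplar against PDA was 0.85, short of 2-fold.

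The 9 members described as GMC oxidoreductase, a family name that does not give a substrate, went different ways. Trave1_163334 measured 5.43 RPKM on PDA, 7.43 on glucose and 52.3 on poplar, on 28, 36 and 265 reads. It was low on both other media, and its ratios were the largest of the 35 measured members on poplar, 9.64-fold over PDA (6.52 to 14.8) and 7.04-fold over glucose (4.96 to 10.3). Reads covered 97.7% of its gene model on poplar, 63.6% on glucose and 49.0% on PDA. With a pseudocount of 5 in place of 1, its log2 ratio against PDA was 2.46 in place of 3.05.

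Trave1_57642 measured 54.8 RPKM on PDA, 196 on glucose and 115 on poplar, the highest levels among the members outside the alcohol oxidase and copper radical names. It was 3.59-fold higher on glucose than on PDA (3.17 to 4.07), and 2.10-fold higher on poplar than on PDA (1.84 to 2.41), a call that ended under median-of-ratios scaling at a log2 ratio of 0.96. In contrast, Trave1_120102 measured 25.8 RPKM on PDA, 11.4 on glucose and 19.1 on poplar, and was 2.27-fold lower on glucose than on PDA (1.63 to 3.19), or −0.91 on the log2 scale with a pseudocount of 5, which ended the call. Its order, PDA above poplar above glucose, was found in 4 of the 9 GMC oxidoreductases and in 7 of all 36 members. The other 3 GMC oxidoreductases of this order were Trave1_174806, Trave1_54314 and Trave1_148818. They measured 35.2, 26.4 and 12.2 RPKM on PDA and 20.3, 14.4 and 7.52 RPKM on glucose, and none of them reached a 2-fold difference. For these 3 the counting intervals of glucose against PDA left out 1. For each, the interval of 1 or more comparisons with poplar held 1, so the place of poplar in their order is unresolved. Trave1_21953 had 18 reads on poplar and 6 on PDA, 3.05-fold higher (1.16 to 9.40). Trave1_87231, a partial hypothetical protein of 324 bases, had 1 read on PDA, 3 on glucose and 1 on poplar. It was called higher on glucose than on PDA and lower on poplar than on glucose, and neither counting interval left out a ratio of 1. The members of this paragraph other than Trave1_57642 and Trave1_120102 were named after their values were seen.

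**Figure D3:**
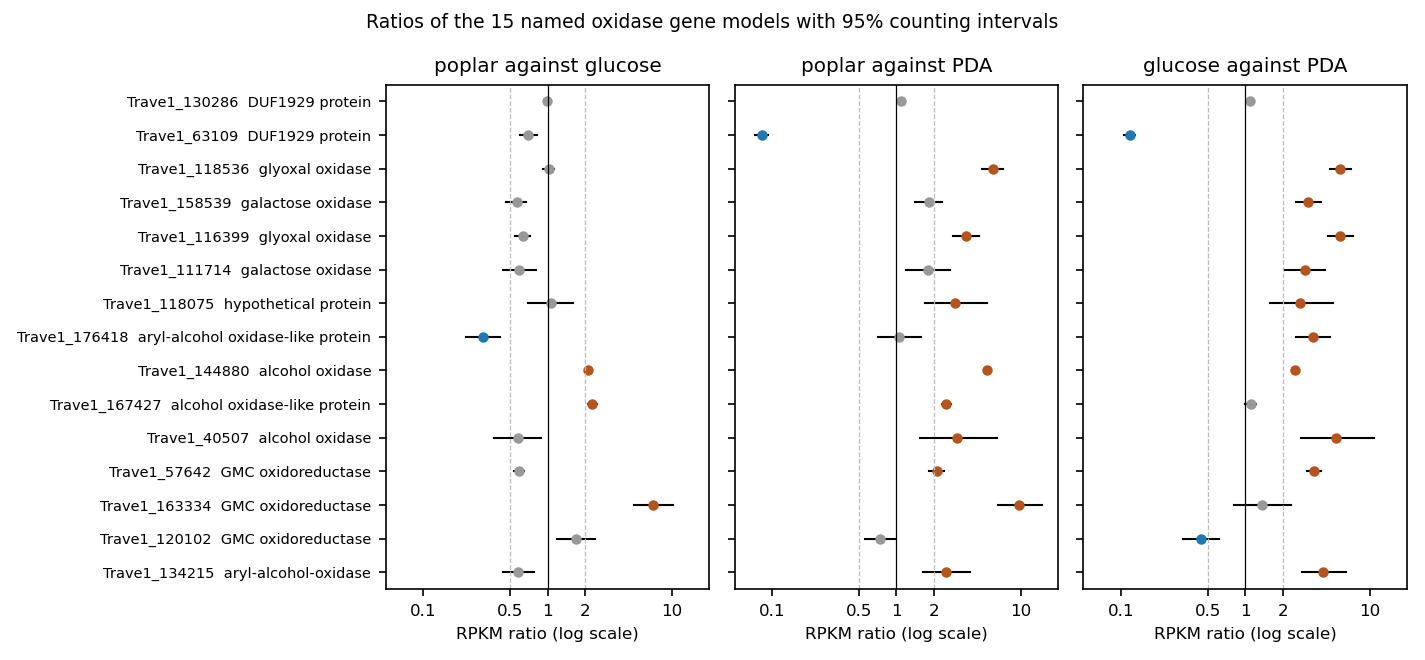
Ratios of RPKM (log axis) for the 15 members named by rule in each pair of libraries, with 95% exact counting intervals as bars, dashed lines at 2-fold, and points coloured where the gene was called higher or lower. Trave1_63109 lies far left of 1 in both comparisons against PDA, while Trave1_163334, Trave1_144880 and Trave1_167427 lie right of 1 in both comparisons of poplar.

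Among the copper radical oxidases, the 4 glyoxal oxidase precursors each had their lowest value on PDA, which counting error leaves unresolved for Trave1_131020. Their summed level was 48.0 RPKM on PDA, 274 on glucose and 235 on poplar, 5.71-fold higher on glucose and 4.90-fold higher on poplar than on PDA. Trave1_118536 measured 27.1 RPKM on PDA, 158 on glucose and 161 on poplar. Glucose and poplar were alike within counting error, with a ratio of 1.02 (0.918 to 1.13), and glucose was 5.82-fold above PDA (4.82 to 7.07). Trave1_116399 measured 19.0 RPKM on PDA, 110 on glucose and 69.0 on poplar, 5.77-fold higher on glucose than on PDA (4.60 to 7.31) and 3.63-fold higher on poplar than on PDA (2.87 to 4.64). Poplar was 1.59-fold below glucose for this gene (1.38 to 1.84). The remaining pair was weak, at no more than 4.47 RPKM for Trave1_115826 and 2.02 RPKM for Trave1_131020. Trave1_115826 had 6 reads on PDA, 20 on glucose and 17 on poplar. It was called higher than on PDA both on glucose, 3.55-fold (1.37 to 10.8), and on poplar, 2.89-fold (1.09 to 8.94). For Trave1_131020, with 3 reads on PDA, 9 on glucose and 8 on poplar, the counting intervals of the ratios to PDA held 1.

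The DUF1929 proteins, both given the KEGG names galactose oxidase and glutathione S-transferase, were the highest copper radical members on PDA and differed in pattern. Trave1_130286 was also the highest on glucose and poplar, where Trave1_63109 lay below several others. Trave1_130286 measured 1134 RPKM on PDA, 1231 on glucose and 1229 on poplar. Its level was nearly the same on all media, with ratios of 1.09 (1.05 to 1.12) for glucose against PDA and 1.08 (1.05 to 1.12) for poplar against PDA. Trave1_63109 measured 647 RPKM on PDA, 76.4 on glucose and 53.5 on poplar. It was high on PDA alone among the 3 libraries, 12.1-fold lower on poplar (10.7 to 13.7) and 8.47-fold lower on glucose (7.63 to 9.41). It accounted for 19.3% of the summed RPKM of the set on PDA and for 0.782% on poplar. It was also the only member called lower on poplar than on PDA, and it entered through its KEGG name alone.

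The hypothetical protein Trave1_61499 measured 145 RPKM on PDA, 132 on glucose and 81.4 on poplar. The other hypothetical protein, Trave1_118075, measured 3.77 RPKM on PDA, 10.5 on glucose and 11.1 on poplar, 2.78-fold higher on glucose than on PDA (1.58 to 5.09) and 2.94-fold higher on poplar than on PDA (1.69 to 5.34). Both calls ended with a pseudocount of 5, at log2 ratios of 0.82 and 0.88. The gene described as copper radical oxidase, Trave1_45690, had 6 reads on PDA, 22 on glucose and 10 on poplar. On these few reads it was called higher on glucose than on PDA, 3.90-fold (1.53 to 11.8). Of the 5 members described as galactose oxidase, 2 were higher on glucose than on PDA (background 12.7%) and 0 lower (background 6.52%). They were Trave1_158539, at 42.2 RPKM on PDA, 136 on glucose and 76.5 on poplar, and Trave1_111714, at 12.5, 37.5 and 22.3 RPKM in the same order. Trave1_158539 was 3.22-fold higher on glucose than on PDA (2.58 to 4.06) and Trave1_111714 was 3.01-fold higher (2.09 to 4.41).

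Taking the copper radical names together, 7 of 14 were higher and 1 lower on glucose than on PDA, against 12.7% and 6.52% of all gene models. On poplar against PDA 4 were higher and 1 lower, against 10.8% and 5.11%. Between poplar and glucose 0 of the 14 were called in either direction, against 8.1% and 8.31%. Their log2 ratios of RPKM plus 1 lay between −0.84 and 0.17. The lowest was that of Trave1_45690, which by plain RPKM was 2.30-fold lower on poplar than on glucose (1.05 to 5.44). The 21 measured GMC members gave 7 higher and 1 lower on glucose than on PDA, 7 higher and 0 lower on poplar than on PDA, and 3 higher and 3 lower on poplar than on glucose, to be read beside the same background shares. The summed RPKM of the copper radical members was 2171 on PDA, 2086 on glucose and 1901 on poplar. That of the GMC members was 1178 on PDA, 2561 on glucose and 4934 on poplar, and without Trave1_144880 it was 383, 559 and 701 RPKM. Whether the groups differ from each other was not tested, with 1 library per medium.

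At least 2-fold above both other media were 3 members on poplar (Trave1_144880, Trave1_163334 and Trave1_167427), 2 on glucose (Trave1_176418 and Trave1_87231) and 1 on PDA (Trave1_63109). Over 10756 gene models these patterns were met by 3.26%, 5.06% and 2.18%.

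Genes that work beside these oxidases were looked up by name. Aryl-alcohol dehydrogenases, which can reduce aryl aldehydes back to alcohols, numbered 6 gene models, with a summed level of 104 RPKM on PDA, 120 on glucose and 99.2 on poplar. The highest of them, Trave1_46564, measured 72.6, 84.2 and 68.3 RPKM in that order, all within 2-fold, and the next, Trave1_46559, measured 23.1, 19.6 and 21.1 RPKM. There were 4 genes of formaldehyde and formate oxidation, which follow methanol oxidation. On glucose 2 were higher and 1 lower than on PDA (background 12.7% and 6.52%). The counts were the same for poplar against PDA (background 10.8% and 5.11%). NAD-dependent formate dehydrogenase Trave1_56661 measured 348 RPKM on PDA, 1943 on glucose and 1284 on poplar, 5.58-fold higher on glucose (5.25 to 5.94) and 3.69-fold higher on poplar (3.46 to 3.94) than on PDA. Trave1_18643, described as alcohol dehydrogenase and in this list through its KEGG names, measured 132, 344 and 435 RPKM.

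Of 3 catalases, which break down hydrogen peroxide, Trave1_152668 was by far the highest, at 1385 RPKM on PDA, 3680 on glucose and 3710 on poplar. Trave1_133599, with a catalase domain, measured 14.1, 9.26 and 6.59 RPKM. The 21 class II peroxidases, which use hydrogen peroxide, summed to 827 RPKM on PDA, 1903 on glucose and 4387 on poplar, with 9 higher and 5 lower on poplar than on glucose (background 8.1% and 8.31%) and 11 higher and 2 lower on poplar than on PDA (background 10.8% and 5.11%). Ligninase C, Trave1_115214, measured 111, 553 and 1965 RPKM, and the lignin peroxidase Trave1_43559 measured 70.3, 562 and 333 RPKM. Of the genes kept out of the set, pyranose 2-oxidase Trave1_174991 measured 7639 RPKM on PDA, 992 on glucose and 2316 on poplar. Its level on PDA exceeded the sum of the 36 members there, and on poplar it was below that of Trave1_144880. Cellobiose dehydrogenase Trave1_73866 measured 13.8, 170 and 66.7 RPKM, with glucose highest.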

How the data were processed

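RNA of 1 mycelial culture per medium was enriched with oligo(dT) and sequenced on an Illumina HiSeq, per the labels' protocols. The authors deposited, per the file headers, uniquely assigned read counts per gene model, gene model length, percent coverage and RPKM. The RPKM values were recomputed from the deposited counts and header totals without difference. Lengths were read as coding length, since 99.3% were multiples of 3. Cufflinks 2.0.1 appears in the submitters' processing notes with no stated use. The aligner, the genome build and the strandedness were not given in the sources used here. Library totals were 2.85 M (PDA), 2.68 M (glucose) and 2.80 M reads (poplar), and a floor of 3 reads per kb equalled 1.05, 1.12 and 1.07 RPKM.

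Ratios of RPKM plus 1, called at 2-fold with at least 1 RPKM in either library, and exact conditional (Clopper-Pearson) 95% intervals of count ratios were computed with Python 3.11.15 and SciPy 1.17.1, after a check on simulated counts. Fold values of single genes are plain RPKM ratios, while their log2 ratios are of RPKM plus 1 unless another pseudocount is named. No p-value was computed. Genes absent from a table were given 0 reads. Genes were named by a rule: members of at least 10 RPKM that differed at least 2-fold, the 3 highest per library, the highest of each name group, and the 2 highest of each related list. This gave 15 members, and others are named as chosen later or to complete a group. The members, lists and rules were chosen with earlier results of these data known.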

Additional observations from a re-analysis of the deposited data

How the results depend on the processing

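No paired analysis was possible because each medium had 1 library. For another pseudocount, minimum or scaling, shares over all gene models are not given, so those counts cannot be set beside a background. With a pseudocount of 0.1, 5 members were higher on poplar than on glucose in place of 3, and 2 were lower on poplar than on PDA in place of 1. With a pseudocount of 5, 1 member was lower on poplar than on glucose, 6 were higher on poplar than on PDA, and 9 were higher and 1 lower on glucose than on PDA, with medians of 0.28 for poplar and 0.32 for glucose against PDA. With a minimum of 10 RPKM, which left 24 members between poplar and glucose, 1 was lower on poplar. At 1.5-fold, 6 were higher and 12 lower on poplar than on glucose, 18 higher and 6 lower on poplar than on PDA, and 6 lower on glucose than on PDA, with the shares over all gene models at 17.4% and 15.1%, 21.4% and 11.5%, and 15.1%. Median-of-ratios scaling gave 2 lower on poplar than on PDA, and log2 ratios of summed RPKM of 0.47 in place of 0.56 for poplar against glucose and 0.93 in place of 1.03 for poplar against PDA. With members by description alone, 29 were measured in each comparison. Of these, 0 were lower on poplar (background 5.11%) and 1 on glucose (background 6.52%) than on PDA. The median between poplar and glucose turned from −0.07 to 0.0069. By description alone, the sum ratios were 0.78, 1.95 and, for glucose against PDA, 1.17 in place of 0.47. This alternative leaves out both DUF1929 proteins. Leaving out Trave1_144880 gave sum ratios of −0.024, 0.027 and 0.051, so each sum ratio depends on that gene, and the first turned negative. In the sums without it, the higher level of Trave1_63109 on PDA offsets lower sums of other members there. Leaving out the galactose oxidase descriptions, an alternative chosen after seeing the data, gave 0.61 for poplar against glucose and 0.44 for glucose against PDA. For the members named by rule, 26 called ratios were recomputed under other settings, giving 78 values. Of these, 75 were counted as unchanged within counting error and 0 changed sign. Below 2-fold fell 7, 5 with a pseudocount of 5 and 2 with median-of-ratios scaling. Some of the 75 lay outside the printed interval of the RPKM ratio. With a pseudocount of 5, Trave1_40507 on glucose against PDA had a log2 ratio of 1.23 in place of 2.00. Depth limits the weak members, such as Trave1_87231, whose calls rest on at most 3 reads.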
